A study of Mus musculus with 8 samples.

Results

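Expression was examined for 9 regulators of ventral telencephalon patterning, namely Nkx2-1, Gsx1, Gsx2, Dlx1, Dlx2, Dlx5, Dlx6, Sp9 and Nr2f2. They were chosen by name, as transcription factors that mark or specify the ganglionic eminences, by a rule that uses no measured value but was set with earlier results of these data known. All 9 were among the 48709 genes counted, and all 9 were among the 16525 genes that passed the filter on low counts and were tested. The cortex of 4 dcKO_hGFAP-Cre and 4 control mice, all on a C57BL/6J background, was sequenced as bulk RNA at postnatal day 3 (P3). In the dcKO_hGFAP-Cre mice, both alleles of BAF155 and BAF170, core scaffold subunits of the BAF chromatin remodeling complex, are floxed, and the human GFAP promoter drives Cre in radial glia of the dorsal telencephalon (dTel). The study describes the controls as Cre-positive mice heterozygous for both floxed genes, while the sample titles carry a wild-type tag, so controls may share Cre with the mutants. Cells of ventral origin, and neurons born before Cre acts, can retain both BAF subunits in the mutants.

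In the embryo, the ventral telencephalon (vTel) is divided into the medial, lateral and caudal ganglionic eminences (MGE, LGE and CGE). Nkx2-1 specifies the MGE, and Gsx2 with its paralog Gsx1 specifies the LGE. Dlx1, Dlx2, Dlx5 and Dlx6 act downstream of them in the production of GABAergic neurons, Sp9 is required for striatal and interneuron development, and Nr2f2 (COUP-TFII) marks the CGE and the interneurons that leave it. GABAergic interneurons migrate from the eminences into the cortex, whereas the excitatory neurons of the cortex are born in the dTel. Some of these genes are therefore present in normal P3 cortex.

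Total counts were 21126713 to 31805395 in control libraries and 22002784 to 32110285 in dcKO_hGFAP-Cre libraries. Smarcc1 (BAF155) had a mean of 159 CPM (the TMM-normalized count of a gene scaled to a common library total) in controls and 81.2 CPM in mutants, and Smarcc2 (BAF170) had 483 and 283 CPM, with no overlap between the groups for either. The cortical neuron gene Tbr1 was at 187 CPM in controls. Mitochondrial genes took 2.06% to 3.23% of the counts in controls and 3.57% to 5.47% in mutants. Mutant replicates 1 and 2 stood apart from the other 6 libraries in their choroid plexus genes, with summed levels of 610 and 1171 CPM against 20.7 CPM or less. The calls of the 9 regulators, and of all genes of the lists and gene neighborhoods below, were therefore repeated with mutant replicates 3 and 4 alone. Of 107 such genes called in all libraries, 77 were still called, 30 were not, and 0 changed sign.

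Of the 9 regulators, 8 were higher in dcKO_hGFAP-Cre cortex at an adjusted p under 0.05 in edgeR's quasi-likelihood test, and 0 were lower, as were 0 at an unadjusted p under 0.05 and 0 with DESeq2 or limma-voom. Among all genes tested, 18.6% were called higher and 18.9% lower, or 37.5% in either direction. The fold change was positive for all 9, and for 52.4% of the genes tested. Sp9 rose 2.49-fold, Nkx2-1 3.09-fold, Dlx6 2.34-fold and Gsx2 2.25-fold, while the smallest of the 8 rises was that of Dlx2, at 1.20-fold. For the same 8 genes, every mutant library lay above every control library, a pattern shown by 16.7% of all genes tested, while 17.7% showed the reverse and 0 of the 9 did. The median log2 fold change of the 9 genes was 0.86, beside 0.02 for all genes tested. Nr2f2 was the gene that did not pass. RNA of bulk tissue does not separate more cells expressing a gene from more RNA of that gene per cell, so the 2 cannot be told apart for any of these rises.

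**Figure D1:**
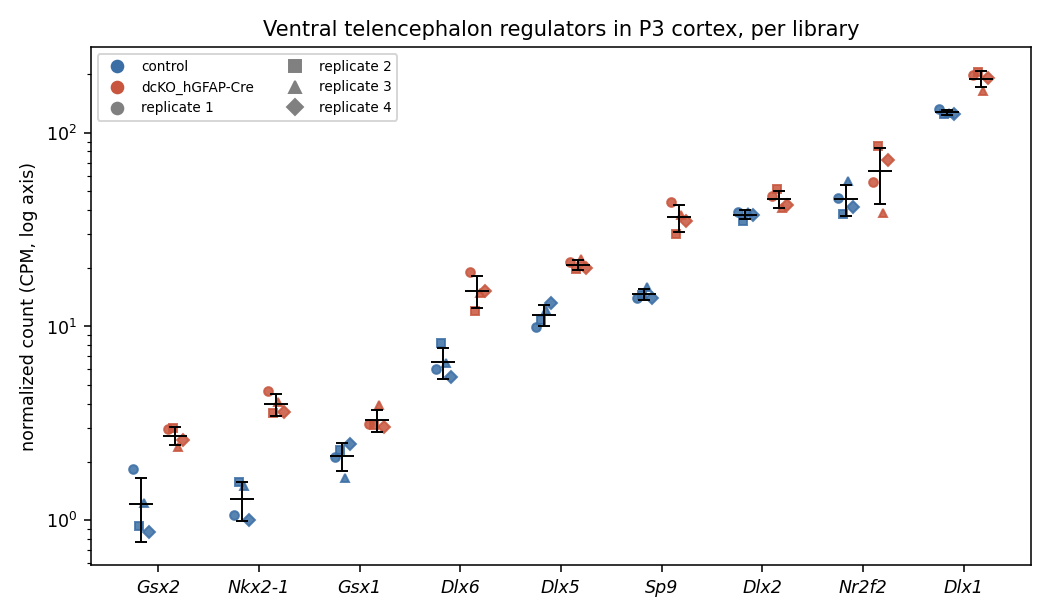
Normalized count (CPM, log axis) of each regulator in every library, ordered by control mean, with controls in blue and dcKO_hGFAP-Cre in red. Symbols give the replicate number, and black bars give the group mean ± SD (n = 4). The groups are apart for 8 genes and overlap for Nr2f2.

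The stretch upstream of the start site was read for the genes that rose together. RefSeq windows on GRCm38.p6, the build of mm10, were matched for 7 of the 9 genes, with none for Dlx5 and Dlx6. Those of Dlx1 and Nr2f2 lay inside exons of the GENCODE annotation and are not shown. Bases are given 5′ to 3′ on the strand of the gene, and capitals mark matches to any of 5 short motifs searched on both strands: TAATTA and TAATTG (homeodomain cores), CAAGTG (an NKX2 core), GGGCGG (a GC box, bound by SP factors) and AGGTCA (a nuclear receptor site). The windows are chr12:56536909-56537158 on the minus strand for Nkx2-1, chr5:147188446-147188695 on the plus strand for Gsx1, chr5:75075351-75075600 on the plus strand for Gsx2, chr2:71546755-71547004 on the minus strand for Dlx2 and chr2:73271676-73271924 on the plus strand for Sp9.
Nkx2-1: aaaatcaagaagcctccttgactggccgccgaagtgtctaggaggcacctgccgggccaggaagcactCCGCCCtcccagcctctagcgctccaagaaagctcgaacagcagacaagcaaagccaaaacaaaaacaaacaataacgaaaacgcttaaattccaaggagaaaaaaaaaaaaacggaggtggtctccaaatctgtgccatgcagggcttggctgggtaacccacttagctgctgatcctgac
Gsx1: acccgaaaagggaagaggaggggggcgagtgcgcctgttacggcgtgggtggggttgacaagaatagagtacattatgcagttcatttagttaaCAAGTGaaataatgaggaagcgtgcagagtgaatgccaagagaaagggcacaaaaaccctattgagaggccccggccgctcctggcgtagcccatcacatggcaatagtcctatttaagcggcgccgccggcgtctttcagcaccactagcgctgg
Gsx2: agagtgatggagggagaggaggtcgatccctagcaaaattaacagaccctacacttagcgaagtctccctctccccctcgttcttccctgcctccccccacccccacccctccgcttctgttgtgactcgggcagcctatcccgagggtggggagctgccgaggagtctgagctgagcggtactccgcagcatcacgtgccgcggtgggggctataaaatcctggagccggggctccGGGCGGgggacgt
Dlx2: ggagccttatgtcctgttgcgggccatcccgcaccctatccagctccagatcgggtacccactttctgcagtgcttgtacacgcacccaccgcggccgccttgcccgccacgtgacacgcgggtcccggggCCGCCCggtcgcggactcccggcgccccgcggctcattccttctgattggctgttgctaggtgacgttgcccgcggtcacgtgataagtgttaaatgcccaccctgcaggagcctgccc
Sp9: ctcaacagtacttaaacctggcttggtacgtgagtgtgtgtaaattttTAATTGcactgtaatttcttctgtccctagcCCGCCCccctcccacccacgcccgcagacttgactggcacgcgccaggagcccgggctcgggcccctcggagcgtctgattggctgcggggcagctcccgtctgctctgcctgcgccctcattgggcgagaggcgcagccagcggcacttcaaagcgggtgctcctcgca

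A GC box was found once each in the windows of Nkx2-1, Gsx2, Dlx2 and Sp9, and 32.7% of all 32817 RefSeq windows of the same length held one. Bases G and C made up 50.8%, 63.6%, 66.4% and 62.4% of those windows in that order, beside a median of 52.4% over all windows. The share of all windows was not matched for base composition. TAATTG stood once in the Sp9 window, beside 7.17% of all windows, and CAAGTG once in the Gsx1 window, beside 11.6%. AGGTCA was met once in the Dlx1 window, beside 14.0% of all windows, and TAATTA, held by 4.85%, in none of the 7. The GC box was the only one of the 5 motifs held by more than 1 of the 7 windows. A match describes the sequence without showing binding.

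Nkx2-1 (ENSMUSG00000001496, chromosome 12 of mm10 from 56531958 to 56536908, minus strand), the homeodomain factor of the MGE, was scarce in control cortex. It had 1.06, 1.58, 1.49 and 1.01 CPM in control replicates 1 to 4, from 23 to 45 counts, and 4.66, 3.56, 4.06 and 3.62 CPM in mutant replicates 1 to 4, from 84 to 120 counts. The lowest mutant library was more than 1 CPM above the highest control, and mutant replicate 1 was the highest of the 8. The log2 fold change was 1.63 ± 0.21 (SE, n = 4 per group, adjusted p = 9.7e-05), the largest of the 9 genes.

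Gsx1 and Gsx2 encode homeodomain factors of LGE progenitors and lie apart on chromosome 5. Gsx2 (ENSMUSG00000035946, 75075601 to 75077893, plus strand) had 1.84, 0.937, 1.23 and 0.868 CPM in controls and 2.95, 3.01, 2.39 and 2.60 CPM in mutants. Control replicate 1 was the highest control and still below the lowest mutant. Gsx2 rose by 1.17 ± 0.24 on the log2 scale (adjusted p = 0.00291). Gsx1 (ENSMUSG00000053129, 147188696 to 147190947, plus strand) had 2.12, 2.32, 1.66 and 2.46 CPM in controls and 3.12, 3.09, 3.92 and 3.02 CPM in mutants. Its groups were separated by a narrow gap, with mutant replicate 3 above the other 3 mutants. The log2 fold change of Gsx1 was 0.62 ± 0.19 (adjusted p = 0.0202). That call was lost without control replicate 3 (adjusted p = 0.0728), without mutant replicate 3 (0.0522) and with mutant replicates 3 and 4 alone (0.0729). Both Gsx genes rest on few reads, from 19 to 71 counts per control library and from 69 to 115 per mutant library.

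Dlx1 and Dlx2 form a convergent pair on chromosome 2, with 9.4 kb between them, and both promote GABAergic differentiation. Dlx1 (ENSMUSG00000041911, 71528113 to 71533981, plus strand) had 133, 124.8, 126.9 and 124.9 CPM in controls and 198.5, 205.7, 164.1 and 192.3 CPM in mutants. The controls were tightly grouped and each mutant was well above them, with mutant replicate 3 the lowest. Dlx1 rose by 0.58 ± 0.08 on the log2 scale (adjusted p = 0.000219). Dlx2 (ENSMUSG00000023391, 71543408 to 71546754, minus strand) had 39.2, 35.0, 39.1 and 37.8 CPM in controls and 47.2, 51.0, 40.7 and 42.6 CPM in mutants. Here mutant replicate 3 was barely above control replicates 1 and 3. The log2 fold change of Dlx2 was 0.26 ± 0.09 (adjusted p = 0.0394). This small rise was the least firm of the 8: leaving out control replicate 2, 3 or 4 or mutant replicate 1 or 2 gave log2 fold changes of 0.19 to 0.28 and adjusted p values of 0.0700 to 0.131. With mutant replicates 3 and 4 alone it was 0.14 (adjusted p = 0.403).

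Dlx5 and Dlx6 form the second convergent pair, on chromosome 6 with 9.2 kb between them, and are known targets of DLX1 and DLX2. Dlx5 (ENSMUSG00000029755, 6877805 to 6882085, minus strand) had 9.90, 10.8, 12.1 and 13.2 CPM in controls and 21.6, 19.7, 22.2 and 20.01 CPM in mutants. The mutant libraries differed little among themselves, and the gap to the controls was wider than the spread of either group. Dlx5 rose by 0.86 ± 0.11 on the log2 scale (adjusted p = 0.000147). Dlx6 (ENSMUSG00000029754, 6863334 to 6868568, plus strand) had 6.03, 8.18, 6.51 and 5.48 CPM in controls and 19.1, 11.99, 14.9 and 15.3 CPM in mutants. Mutant replicate 2 was the lowest mutant and control replicate 2 the highest control, yet the groups stayed apart. The log2 fold change of Dlx6 was 1.23 ± 0.17 (adjusted p = 0.000151).

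Sp9 (ENSMUSG00000068859, chromosome 2 from 73271925 to 73284706, plus strand), a zinc finger factor of LGE and MGE derivatives, had 14.0, 14.5, 16.1 and 14.1 CPM in controls. In mutants it had 43.7, 29.9, 37.4 and 35.2 CPM. The lowest mutant, replicate 2, was still far above the highest control. Sp9 had the smallest p of the 9 genes, with a log2 fold change of 1.31 ± 0.12 (adjusted p = 8.22e-06). Its close paralog Sp8, a marker of CGE and LGE lineages, was at 12.6 CPM in controls and 12.3 CPM in mutants (log2 fold change -0.04, adjusted p = 0.875). The difference between the paralogs was not tested.

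Nr2f2 (ENSMUSG00000030551, chromosome 7 from 70351944 to 70366735, minus strand), a nuclear receptor of the CGE, had 46.0, 37.9, 56.5 and 41.4 CPM in controls and 55.8, 85.7, 38.5 and 72.2 CPM in mutants. Mutant replicates 2 and 4 were above all controls, replicate 1 was within their range and replicate 3 was near the lowest control. The log2 fold change was 0.47 ± 0.23 (adjusted p = 0.143), and an exact two-sided permutation test on the CPM values gave p = 0.229. Mutant replicate 3 alone decided the call, because without it the value was 0.65 (adjusted p = 0.00753). A p above the threshold does not show that Nr2f2 was alike in both groups. The related receptor gene Nr2f1 (COUP-TFI) rose from 176 to 249 CPM, a log2 fold change of 0.50 (adjusted p = 0.0108).

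Divided by exon length, so that genes can be set beside one another, the levels in control cortex ran from 23.6 CPM per kb for Dlx1 to 0.452 CPM per kb for Nkx2-1. Dlx2 followed Dlx1 at 13.2 CPM per kb, then came Nr2f2 at 5.27 and Dlx5 at 5.09, Sp9 at 2.91 and Dlx6 at 2.76, and Gsx1 at 1.21 and Gsx2 at 0.732 CPM per kb. The ranges over 4 libraries overlapped between Nr2f2 and Dlx5, between Sp9 and Dlx6, between Gsx1 and Gsx2, and between Gsx2 and Nkx2-1, so these neighbors were not separated. In mutants Dlx1 stood at 35.2 and Dlx2 at 15.9 CPM per kb, and Dlx5, at 9.23 CPM per kb, came next by its mean with this measure of length. The mutant range of Nr2f2, with a mean of 7.31 CPM per kb, overlapped those of Dlx5, of Sp9 at 7.25 and of Dlx6 at 6.45 CPM per kb. Gsx2 at 1.64 CPM per kb overlapped Gsx1 above it and Nkx2-1 below it. Nkx2-1 thus kept the lowest mean level of the 9 in both groups while it had the largest fold change. With the longest transcript as the length, Nr2f2 stood at 10.8 and Dlx5 at 8.10 CPM per kb in controls and at 14.9 and 14.7 CPM per kb in mutants, so Dlx5 came after Nr2f2 by its mean in both groups.

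The rises within a gene pair were unequal in some cases, as read from count ratios within each library, which do not depend on library scaling. The log2 ratio of Dlx1 to Dlx2 was 1.75 ± 0.06 in controls and 2.07 ± 0.08 in mutants (SD, n = 4), higher in 4 of 4 mutants than in any control. Sp9 gained on Dlx1, with a log2 ratio of -3.12 in controls and -2.39 in mutants, and the later-acting pair gained on the earlier pair, the log2 ratio of Dlx1 and Dlx2 to Dlx5 and Dlx6 being 3.19 in controls and 2.70 in mutants. Those groups did not overlap either. The log2 ratio of Dlx5 to Dlx6 was 0.82 in controls and 0.47 in mutants, with overlap, and that of Gsx1 to Gsx2 was 0.85 and 0.26, also with overlap. In exact two-sided permutation tests, the non-overlapping ratios each gave p = 0.0286, the smallest that 4 against 4 allows, and 0.05 after adjustment over the 7 ratios compared, which is not under the threshold. Dlx5 to Dlx6 gave p = 0.143 (adjusted 0.167) and Gsx1 to Gsx2 gave p = 0.2 (adjusted 0.2) in the same exact tests.

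**Figure D2:**
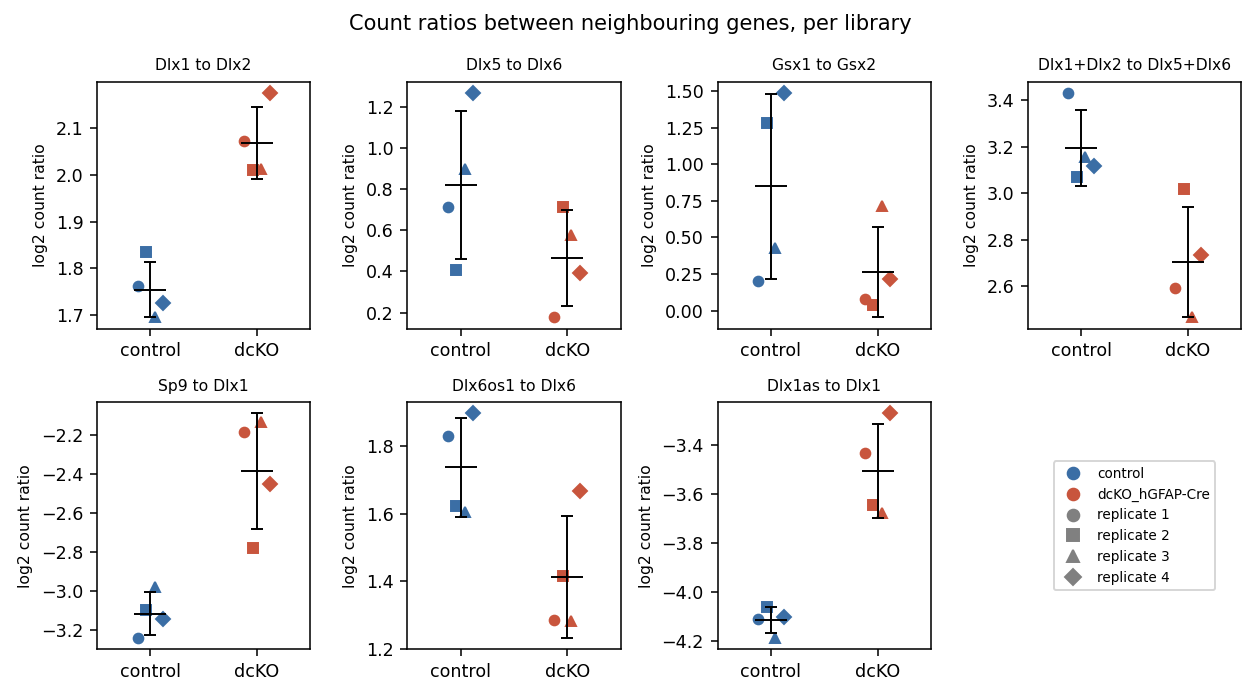
Log2 count ratio of the named gene pairs in each library, with controls in blue, dcKO_hGFAP-Cre in red, and black bars for the mean ± SD (n = 4). Axes differ between panels and do not start at 0. The groups are apart for Dlx1 to Dlx2, for the summed Dlx pairs, for Sp9 to Dlx1 and for Dlx1as to Dlx1, and overlap for the other 3.

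Antisense transcripts of the Dlx clusters were higher too. Dlx1as, which runs opposite to Dlx1 and shares 335 exon bases with it (6.21% of the Dlx1 exons), had 7.69, 7.44, 6.94 and 7.26 CPM in controls and 18.4, 16.4, 12.8 and 19.9 CPM in mutants. Its log2 fold change was 1.21 ± 0.14 (adjusted p = 5.65e-05), and the log2 ratio of Dlx1as to Dlx1 went from -4.12 to -3.51 without overlap (exact permutation p = 0.0286, adjusted 0.05). Dlx6os1, an antisense RNA over the Dlx5 and Dlx6 locus that shares no exon base with Dlx6, had 21.5, 25.2, 19.8 and 20.5 CPM in controls. In mutants it had 46.6, 32.03, 36.2 and 48.5 CPM, a log2 fold change of 0.91 ± 0.14 (adjusted p = 0.000347). Its ratio to Dlx6 overlapped between groups (log2 1.74 and 1.41, exact permutation p = 0.0857, adjusted 0.12). The library kit does not mark strand, so reads from shared exon bases cannot be assigned to either strand. Cir1 shares 270 bases with Sp9 (5.35% of the Sp9 exons) and was at 5.09 and 5.60 CPM (log2 fold change 0.14, adjusted p = 0.564).

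The regulators were next set against the GABA synthesis and transport genes Gad1, Gad2 and Slc32a1, which rose by 0.87, 0.76 and 0.69 on the log2 scale. Relative to the mean log2 CPM of these genes, Nkx2-1 was 0.82 higher in mutants than in controls, Sp9 0.52 higher and Dlx6 0.44 higher, each with every mutant above every control. The exact two-sided permutation p was 0.0286 for each and 0.0857 after adjustment over the 9 genes, which does not pass. Gsx2 differed by 0.39 (adjusted p = 0.343 in the exact test), Dlx5 by 0.08 (0.486), Gsx1 by -0.17 (0.354), Dlx1 by -0.20 (0.343) and Nr2f2 by -0.35 (0.354). Dlx2 was 0.52 lower relative to the GABA genes, with overlap (exact p = 0.0571, adjusted 0.129). Nkx2-1, Sp9 and Dlx6 were at the smallest p that 4 against 4 allows, so they could pass only if more of the 9 genes reached it. A rise of these regulators beyond that of the GABA genes was therefore not shown for any of the 9. At this sample number the test could not decide it for Nkx2-1, Sp9 or Dlx6.

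Mutant libraries did not share the same order for every gene. Nkx2-1, Dlx6 and Sp9 were lowest in mutant replicate 2 and highest in replicate 1, whereas Dlx1, Dlx2, Gsx2 and Nr2f2 were highest in replicate 2 and lowest in replicate 3. Over the deviations of the 8 libraries from their group means, Pearson's r was 0.82 for Nkx2-1 with Dlx6, 0.74 for Dlx6 with Sp9, 0.81 for Dlx1 with Dlx2 and 0.93 for Nr2f2 with Nr2f1, but -0.13 for Dlx1 with Dlx6. Not all related genes moved together, r being -0.055 for Dlx5 with Dlx6 and -0.47 for Gsx1 with Gsx2. These are descriptions over 8 libraries, which differ in depth and in their choroid plexus and striatal genes. LGE and striatal genes summed to 814 to 1013 CPM in controls and to 1869, 1008, 1805 and 1348 CPM in mutant replicates 1 to 4. The sum of replicate 2 lay within the control range, but its genes did not move together: 10 of the 21 were above every control and 4 below every control in that library. Ppp1r1b was at 276 CPM there, against 34.2 to 49.1 CPM in controls, while the broadly expressed Foxp1 was at 84.5 CPM, against 186 to 225 CPM. In the other 3 mutants 18 or 19 of the 21 genes were above every control. The part of striatal tissue in the rises was not tested.

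**Figure D3:**
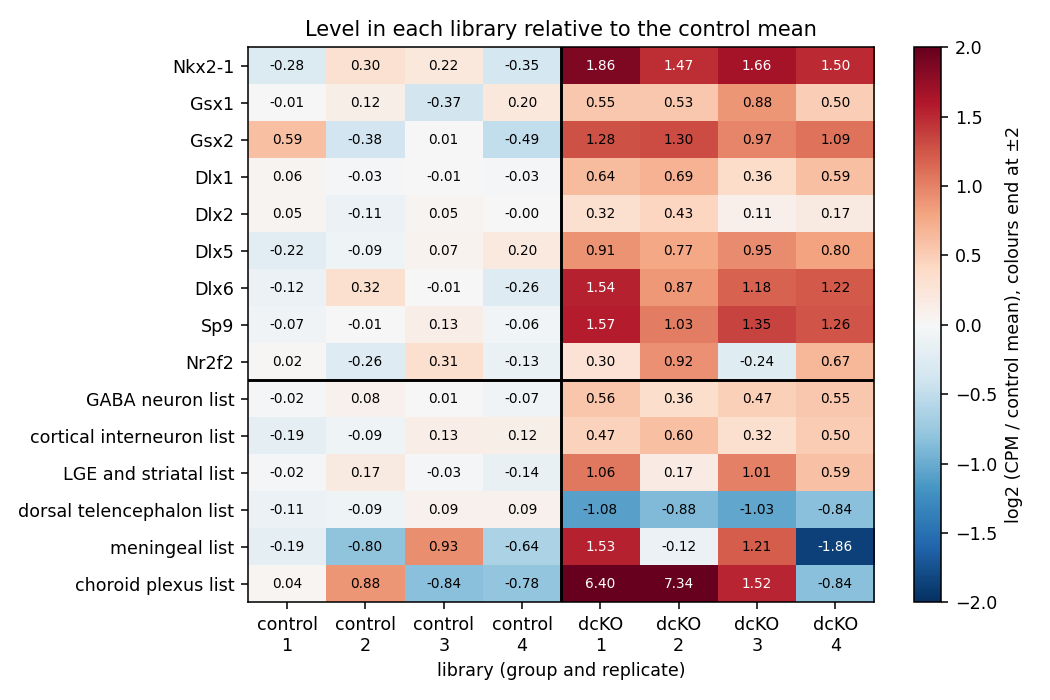
Each cell gives the log2 ratio of a library's CPM to the control mean, for the 9 regulators above the black line and for the summed CPM of 6 gene lists below it, with colors ending at ±2. In mutant replicate 2 the LGE and striatal sum, 0.17 above the control mean, adds genes above and genes below every control. Choroid plexus genes are high in mutant replicates 1 and 2.

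Other genes of the ventral lineages are given beside the background of 37.5% of all genes called in either direction. Of 9 tested MGE genes, 4 rose and 2 fell, with a median log2 fold change of 0.19. Lhx6, needed for MGE interneurons, rose from 103 to 133 CPM (log2 fold change 0.38, adjusted p = 0.00584), and Lhx8, a factor of cholinergic neurons, from 0.439 to 1.75 CPM (2.03, adjusted p = 0.0127). Lhx8 rests on few reads and its groups overlapped, with 10 counts in mutant replicate 2 and 17 in control replicate 2. Satb1, which acts in maturing interneurons, fell by 1.14 on the log2 scale. Of 8 CGE genes, 1 rose (Nr2f1) and 2 fell, Npas1 by 0.71 and Cck by 1.06, the median being -0.17, so that the share called was that of all genes. With mutant replicates 3 and 4 alone, the calls of Lhx6 (adjusted p = 0.0823) and Nr2f1 (0.124) were lost. Prox1, another CGE factor, was at 22.5 and 27.1 CPM and did not pass. Of the 21 LGE and striatal genes, 14 rose and 1 (Foxp4) fell, with a median of 1.65. Of the 14 rises, 13 were still called with mutant replicates 3 and 4 alone, but the fall of Foxp4 was not. That subset leaves out mutant replicates 1 and 2, the mutants with the highest and the lowest sum of these genes (1869 and 1008 CPM). It therefore does not test whether the rises hold in replicate 2, whose sum lay within the control range. Among the 14 rises were Isl1, a factor of striatal projection neurons (log2 fold change 3.43, adjusted p = 0.00217), Ppp1r1b, the striatal signaling protein DARPP-32 (2.92, adjusted p = 4.54e-08), and Drd2, a dopamine receptor (2.08, adjusted p = 0.00984). The Drd2 groups overlapped, with 2.46 CPM in mutant replicate 2 and 2.91 CPM in control replicate 2. Drd1, also a dopamine receptor on the list, was at 19.5 CPM in controls and 17.2 CPM in mutants and did not pass (-0.175, adjusted p = 0.742).

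Of 10 olfactory bulb interneuron genes, 6 rose and 2 fell (median 0.85). Tshz1 rose by 1.18 and Pbx3 by 1.56 on the log2 scale, while Prokr2, a receptor for migrating neuroblasts, fell by 1.53. Among 6 GABA neuron genes 5 rose (median 0.72). Of 13 cortical interneuron genes, 8 rose and 1, Elfn1, fell (median 0.50), with Sst at 1.03 and Calb1 at 1.29. Among the 13 family members and antisense genes listed as relatives of the 9 regulators, 6 could be tested, 3 rose and 1 fell (median 0.24). The one that fell was Nkx2-2, by 0.97 (adjusted p = 0.00664), from 3.60 to 1.83 CPM, opposite in direction to Nkx2-1. Its call, too, was lost with mutant replicates 3 and 4 alone (adjusted p = 0.0905), as was that of Elfn1 (0.191). Nkx2-5 and Nkx2-6 had no count in any library.

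Sonic hedgehog (Shh) signaling induces Nkx2-1 in the embryonic MGE through the receptor Ptch1, the transducer Smo and the Gli factors. Of 12 pathway genes tested, 6 rose and 3 fell, with a median log2 fold change of 0.53. Gli1, a target gene of the pathway, went from 6.38 to 16.7 CPM (log2 fold change 1.39, adjusted p = 5.31e-05) and Ptch1 from 42.4 to 68.9 CPM (0.70, adjusted p = 0.000632). The ligand Shh fell from 1.42 to 0.779 CPM (by 0.88, adjusted p = 0.0251), a call lost with mutant replicates 3 and 4 alone (adjusted p = 0.0760). Hhip and Boc, membrane proteins that bind the ligand, fell by 1.22 and 1.74.

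The dorsal and non-telencephalic lists moved as follows. Of 13 dTel genes tested, 4 rose and 7 fell (median -0.43), among them Emx1 by 2.13 and Neurod6 by 2.04, and their summed level was 1663 to 1915 CPM in controls and 848 to 1001 CPM in mutants. Pax6, which opposes Gsx2 at the border of dTel and vTel, rose by 1.29, and Neurog2, the dTel proneural gene, by 2.71. Of 7 tested hypothalamus and thalamus genes, 6 rose and 0 fell (median 2.75), with summed levels of 4.62 to 9.30 CPM in controls and 31.9 to 49.1 CPM in mutants. Nkx2-1 is also known in the hypothalamus. Of the hypothalamic factors listed, Otp was 2.75 higher on the log2 scale (adjusted p = 0.0113) and Sim1 3.74 higher (adjusted p = 0.0016), each with every mutant above every control, while Rax and Six6 were at 0 in all 8 libraries. The call of Otp was lost with mutant replicates 3 and 4 alone (adjusted p = 0.0905). Of 5 tested cholinergic neuron genes 4 rose and 0 fell (median 2.03), their sum being 2.15 to 6.75 CPM in controls and 15.5 to 30.7 CPM in mutants. Of these rises, Isl1, Gbx1 and Lhx8 also stand in the MGE or the LGE and striatal lists above. The remaining rise, that of Slc18a3, was no longer called with mutant replicates 3 and 4 alone (adjusted p = 0.0612). Slc5a7 did not pass (adjusted p = 0.176), and Chat had too few counts to be tested. The share of neighboring ventral or diencephalic tissue in the dissections was not tested as a part of the rises.

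Markers of other cell types also differed between the groups. Of 5 tested choroid plexus genes, 1 (Clic6) rose and 0 fell in edgeR (median 2.94), with 5 of 6 higher in DESeq2 and 0 in limma-voom, and Clic6 was no longer called with mutant replicates 3 and 4 alone (adjusted p = 0.182). For this list the sums were 4.05 to 13.3 CPM in controls and 610, 1171, 20.7 and 4.05 CPM in mutants. None of 6 meningeal genes passed in edgeR (median 0.61; 0 also at an unadjusted p under 0.05 and 0 in DESeq2 and limma-voom), with sums of 31.5 to 104.6 CPM in controls and 15.1 to 158.8 CPM in mutants. In mutant replicate 4, the choroid plexus sum was no higher and the meningeal sum lower than in any control. Of 8 endothelial genes, 0 rose and 4 fell (median -0.60, sums 268 to 335 and 221 to 269 CPM). Nr2f2 is also expressed in venous endothelium. All 6 oligodendrocyte precursor genes fell (median -0.79, sums 422 to 456 and 234 to 312 CPM), though 4 of them and not Olig1 or Olig2 were still called with mutant replicates 3 and 4 alone. Of 7 microglial genes 5 rose, 3 of which were still called in that way (median 0.65, sums 97.3 to 126 and 183 to 227 CPM). The part of these cell types in the values of the regulators was not tested.

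**Figure D4:**
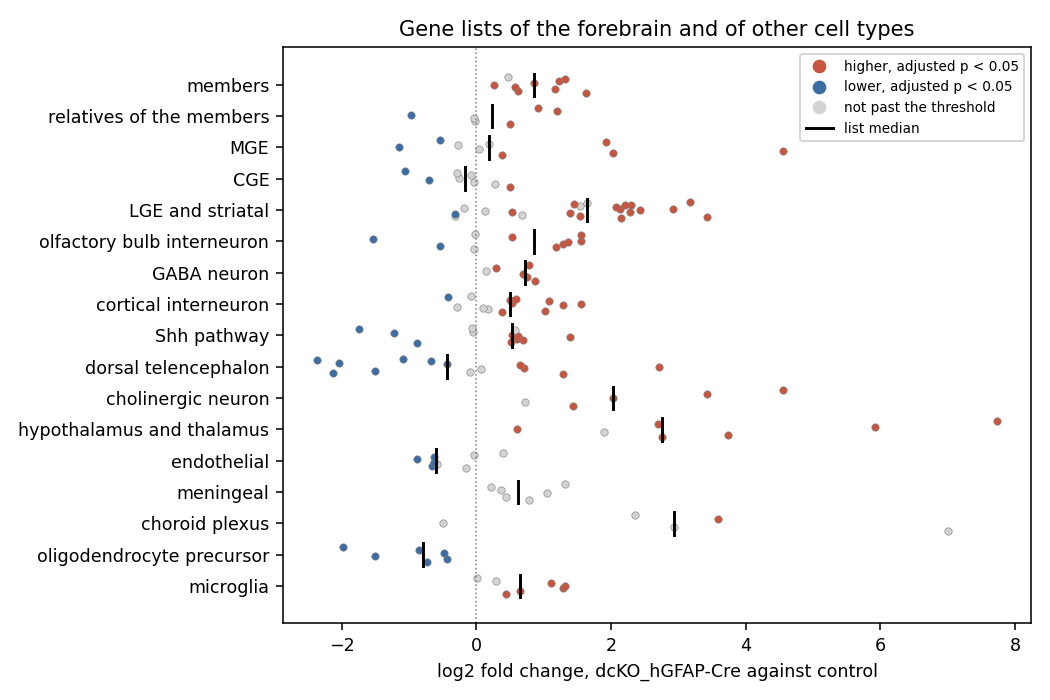
Log2 fold change (dcKO_hGFAP-Cre against control) of every tested gene of 17 lists, with red for higher and blue for lower at an adjusted p under 0.05, grey for genes that did not pass, and a black bar for the list median. The 9 regulators have a median of 0.86 and no gene on the lower side, the LGE and striatal list a median of 1.65, and the CGE list a median of -0.17.

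For each regulator, the 3 genes whose log2 CPM followed it most closely over the 8 libraries were read from 14597 genes with a mean of at least 1 CPM. Pearson's r was between 0.921 and 0.996 throughout, and between 0.59 and 0.975 over the deviations from the group means. These are descriptions over 8 libraries, picked as the closest of many genes. Asb2, Pbx3 and Six3os1 followed Nkx2-1, and Fndc1, Pbx3 and Nkx6-1 followed Sp9, so Pbx3 stood in both sets. Trip6, Ilvbl and Vax1 followed Gsx2, and Psmc6, Nars2 and Itgb3bp followed Gsx1. The closest to Dlx1 were Haus4, Ofd1 and Cacng5, to Dlx2 Car14, Ctsf and Fam221a, to Dlx5 Dnajc12, Fam174a and Mtrf1, and to Dlx6 Itgal, Trhr and Stk26. Nr2f2 was followed by Pcdh8, Shisa2 and Cdh22, which had an r of 0.98, 0.93 and 0.92.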

How the data were processed

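RNA of 4 control and 4 dcKO_hGFAP-Cre P3 cortices, extracted with TRIZOL, had been made into TruSeq libraries, which do not mark strand. The authors used mm10 as genome and featureCounts as counter, and what they deposited is the raw count of each gene per library. The aligner, annotation, strand setting and treatment of multi-mapping reads are not given in the sources used here. Gene symbols, positions and exon lengths came from GENCODE M21 (48349 of 48709 identifiers matched). Replicates are separately labelled samples. No library pair agreed within sampling noise. Depth was 21126713 to 32110285 counts, which leaves the scarcest regulators at 19 to 45 counts in some controls.

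Genes were tested with edgeR 4.0.16 in R 4.3.3 (TMM, robust quasi-likelihood F test, filterByExpr with a minimum count of 10, no block), with Benjamini-Hochberg adjustment over 16525 genes and a threshold of 0.05. Single values and ratios (prior count 0.5) were compared by exact two-sided permutation over 70 arrangements, with scipy. The comparison was tested on simulated counts of 16338 genes, 200 of them changed 2-fold, of which edgeR recovered 77.5%, and 8.28% of its calls were false. That false share was above the 0.05 set as threshold. Far fewer genes were changed than the 37.5% called in the real libraries, so the simulation does not give the error rate of those calls. Alternatives were DESeq2 1.42.0, limma-voom (limma 3.58.1), other scalings and filters, replicate or lane blocks and each library left out. Named are the 9 regulators and genes of 17 lists, and the regulators and lists were chosen with earlier results of these data known. Some genes of the lists are not reported here. P-values measure the spread between these libraries.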

Additional observations from a re-analysis of the deposited data

Results flagged for a closer look

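The Gsx1 level of mutant replicate 3, at 3.92 CPM, lay far from the other 3 mutant libraries: its gap to the nearest of them was 0.887 of the range of the group. This was the only such case in 50 groups of 4 libraries examined, where about 2.5 are expected by chance. Without that library the log2 fold change of Gsx1 was 0.52 (adjusted p = 0.0522).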

How the results depend on the processing

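Of the 9 fold changes, those of Nkx2-1, Gsx2, Dlx1, Dlx5, Dlx6 and Sp9 kept their direction and an adjusted p under 0.05 under every alternative run. Dlx2 stayed positive but missed the threshold without a filter on low counts (0.26, adjusted p = 0.0705), with a lane block (0.26, 0.0512) and with mutant replicates 3 and 4 alone (0.14, 0.403), an alternative chosen after seeing the data for their low choroid plexus level. With those 2 mutants alone, Gsx1 was at 0.70 (adjusted p = 0.0729), and 1388 genes were higher and 1581 lower, beside 3074 and 3128 in all libraries, with fewer samples to test. With the replicate number as a block, Dlx2 was at 0.26 (adjusted p = 0.0776). Same-numbered libraries correlated in their deviations at 0.171, -0.0679, 0.213 and -0.0238, and not every library correlated best with its own number, so the numbers were not taken as pairs. The block left 7 regulators called and changed no other of the 9 calls.

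Leaving out 1 library at a time gave log2 fold changes of 0.19 to 0.31 for Dlx2, 0.51 to 0.70 for Gsx1 and 0.29 to 0.65 for Nr2f2, and between 6 and 8 regulators called higher. Scaling by library totals raised the median of all genes by 0.12, giving 4584 genes higher and 2102 lower, with 8 of the 9 regulators higher. Under that scaling some genes of the lists, among them Foxp4, Elfn1 and Olig2, were no longer called lower, and the calls of each list moved by at most 2 genes in either direction. Relative to Gad1 alone in place of the 3 GABA genes, Dlx5 turned from 0.08 to -0.011 (exact permutation p = 0.943). The cause of these changes was not tested. Depth limits Nkx2-1, Gsx1 and Gsx2 most.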

Other observations

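Genes lying within 250 kb of the 9 regulators were also read. Of 25 such tested genes outside the set, 10 were higher and 4 lower in dcKO_hGFAP-Cre cortex, beside 18.6% higher and 18.9% lower among all genes tested. The 10 include the antisense genes Dlx1as and Dlx6os1, without which 8 of 23 were higher. Metap1d, a mitochondrial methionine aminopeptidase gene 2.9 kb from Dlx1, was 0.80 higher on the log2 scale (adjusted p = 0.00205 in edgeR), and Sdhaf3, 73.9 kb from Dlx5, 0.73 higher (adjusted p = 0.000915). Chic2, 30.8 kb from Gsx2, was at 0.38 (adjusted p = 0.0165), while Pdgfra, 74.4 kb from Gsx2 and a marker of oligodendrocyte precursors, fell by 0.47 (adjusted p = 0.00109). Near Sp9, Scrn3 rose by 0.51 (adjusted p = 0.0181) and Ola1 fell by 0.36 (adjusted p = 0.00574). With mutant replicates 3 and 4 alone, Chic2 (adjusted p = 0.25) and Ola1 (0.0853) were no longer called. These neighbors were named after their values were seen.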
